A study of Homo sapiens with 6 samples.

Results

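A set of 10 transcription factors of plasma cell and B cell identity, IRF4, XBP1, PRDM1, POU2AF1, MAF, IKZF1, IKZF3, PAX5, BCL6 and BACH2, was followed in MM.1R myeloma cells with and without epirubicin. They were chosen by name as the plasma cell factors, the cereblon substrates IKZF1 and IKZF3, the myeloma oncogene MAF and the B cell factors. Their probe sets were those annotated to exactly 1 gene, which gave 35 of 47481 probe sets and 10 of 17534 genes. MM.1R is a glucocorticoid-resistant human multiple myeloma line. Total RNA was hybridised to Affymetrix PrimeView arrays, with 3 arrays of cells infected with the control hairpin virus shCtrl and 3 arrays of cells given epirubicin hydrochloride, an anthracycline that poisons topoisomerase II. The labels name the shCtrl virus for the control arrays and the drug for the others, so drug and virus cannot be told apart, and neither dose nor duration of the drug is stated there. Whether the 3 samples within each group were separate cultures is not stated, so the p-values reflect the variation among these arrays alone, possibly technical in origin.

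IRF4, PRDM1 (BLIMP1) and XBP1 drive the plasma cell programme. IRF4 is required for survival of myeloma cells, PRDM1 represses B cell genes, and XBP1 equips the cell for antibody secretion. PAX5, BCL6 and BACH2 hold cells in the B cell or germinal centre state and are opposed by the plasma cell factors, with BCL6 and BACH2 repressing PRDM1. IKZF1 and IKZF3 are degraded when lenalidomide binds the ligase receptor cereblon, and MAF is driven in the MM.1 lines by a translocation to the immunoglobulin heavy chain locus.

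The deposited values were on a log2 scale, with array medians between 5.52 and 5.57 and a median of all values of 5.54. The correlation between 2 arrays over all probe sets was 0.9982 to 0.9985 within a group and 0.9945 to 0.9947 between groups. The plasma cell identity of the line was visible in 14 plasma cell markers, whose mean level was 9.78 in controls and 9.68 with epirubicin. A marker counted as above the median of all values when the higher of its 2 group means was. By that rule 13 of the 14 lay above it, where 10087 of 17534 genes did. CD38 was among the 13, although its mean with epirubicin was 5.25. Of 9 measured B cell markers 4 lay above that median, of 8 T and NK cell markers 1, and of 8 myeloid and 7 stromal and epithelial markers 0. The mean level of the B cell markers ran from 4.91 to 4.97 in controls and from 4.97 to 5.07 with epirubicin. That of the T and NK cell markers ran from 4.69 to 4.76 and from 4.74 to 4.84, that of the myeloid markers from 3.64 to 3.68 and from 3.75 to 3.79, and that of the stromal and epithelial markers from 3.53 to 3.56 and from 3.49 to 3.60. The part of these shifts in the results was not tested.

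A gene was represented by its brightest probe set, and it was called when the limma p-value adjusted over all genes by Benjamini-Hochberg was under 0.05 and the fold was at least 1.3. By that rule 1 of the 10 factors, IRF4, was lower with epirubicin, 2 of them, BCL6 and BACH2, were higher, and 7 were neither. Among all genes 2.14% were called lower and 4.36% higher. The adjusted p passed at any fold for 7 of the 10, namely IRF4, XBP1 and PRDM1 below the controls and POU2AF1, MAF, BCL6 and BACH2 above, where 29.1% of all genes passed. The 3 epirubicin arrays did not overlap the 3 controls for 9 of the 10, IKZF3 being the exception, against 43.8% of all genes. Of the 10 factors 9 had a group mean above the median of all values, and among the 10087 genes of which that is true 44.3% passed at any fold and 63.7% did not overlap. The median difference of the factors was 0.14 on the log2 scale, against 0.02 for all genes.

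**Figure D1:**
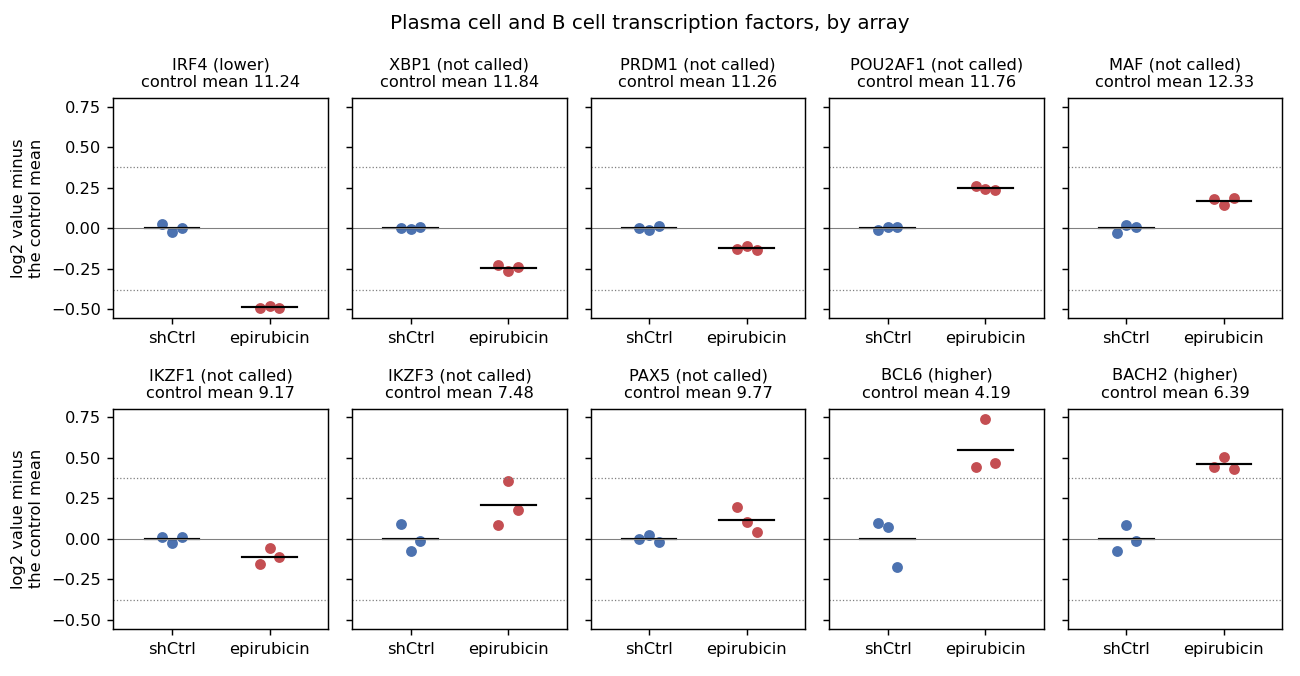
Log2 value minus the control mean of the gene on each of the 6 arrays, for the brightest probe set of each factor. The shCtrl and epirubicin arrays stand side by side, and dotted lines mark the 1.3-fold threshold. Before the subtraction IRF4 read 11.22 to 11.27 in the controls and 10.75 to 10.76 with epirubicin. IKZF3 is the factor whose groups overlap.

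The start regions of the 3 called factors are shown because IRF4 and the B cell factors BCL6 and BACH2 were called in opposite directions. Each runs from 250 bases before to 30 bases after the RefSeq start (GRCh38.p14), 5′ to 3′ on the gene's strand, and capitals mark a match to a searched motif. IRF4 lies at chr6:391502-391781 on the plus strand, and its capitals are the Ikaros family core TGGGAA read on the other strand.
IRF4: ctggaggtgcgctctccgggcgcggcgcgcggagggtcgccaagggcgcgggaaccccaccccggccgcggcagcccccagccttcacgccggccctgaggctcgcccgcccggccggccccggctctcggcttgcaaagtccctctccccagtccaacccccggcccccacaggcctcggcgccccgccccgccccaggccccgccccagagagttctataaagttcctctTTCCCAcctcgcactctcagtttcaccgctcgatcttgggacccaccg
BCL6 lies at chr3:187745439-187745718 on the minus strand, and its capitals are the core CCACGT that XBP1 recognises.
BCL6: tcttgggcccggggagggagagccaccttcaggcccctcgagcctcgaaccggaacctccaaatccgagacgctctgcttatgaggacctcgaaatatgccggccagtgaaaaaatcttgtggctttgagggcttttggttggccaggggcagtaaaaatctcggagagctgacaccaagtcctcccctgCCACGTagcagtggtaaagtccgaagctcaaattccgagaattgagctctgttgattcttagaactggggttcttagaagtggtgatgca
BACH2 lies at chr6:90296814-90297093 on the minus strand, and its capitals are the MAF recognition core TGCTGA read on the other strand.
BACH2: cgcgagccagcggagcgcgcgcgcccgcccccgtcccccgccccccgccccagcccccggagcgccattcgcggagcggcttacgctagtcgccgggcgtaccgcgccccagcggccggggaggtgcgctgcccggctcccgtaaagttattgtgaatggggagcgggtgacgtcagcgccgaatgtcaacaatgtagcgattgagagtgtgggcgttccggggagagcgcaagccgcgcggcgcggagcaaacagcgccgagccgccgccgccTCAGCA
BCL6 is known to bind and repress its own gene near the start. The BCL6 element TTCCTNGAA, read on the other strand, occurred 36 bases after the start. It is shown in capitals within 20 bases at chr3:187745419-187745438.
BCL6 element: agaagtTTCTAGGAAaggcc
These matches describe the letters of the windows and show no binding. In all 9 motifs were searched on both strands in 35116 windows of 300 bases. TGGGAA occurred in 24.0% of them, TGCTGA in 17.3%, CCACGT in 9.72% and TTCCTNGAA in 1.56%. The start windows of IRF4 and BACH2 were 74.0% and 73.3% G or C, and that of BCL6 was 53.0%, against a median of 58.7% over all windows. RefSeq lists another start for BCL6, whose window was 50.3% G or C and held TGAGTCA, a match to the BACH and AP-1 element TGANTCA (7.71% of windows), 77 bases before the start. Promoter entries matched 8 of the 10 factors by symbol.

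IRF4, the interferon regulatory factor on which myeloma cells depend, fell with epirubicin. Its brightest probe set read 11.27, 11.22 and 11.24 in the controls and 10.75, 10.76 and 10.75 with epirubicin, so every treated array lay below every control. The difference was -0.49 (SE 0.03, 95% interval -0.56 to -0.41, n = 3 per group), or 1.40-fold lower, with a limma adjusted p of 0.000114. A change of larger size occurred in 3.71% of all genes. The other IRF4 probe set read 6.88, 6.95 and 6.99 in the controls and 6.25, 6.16 and 6.33 with epirubicin, again without overlap. Its difference was -0.69 (95% interval -0.83 to -0.56), with a limma adjusted p of 0.000347 over all probe sets. Both IRF4 probe sets were therefore called lower, where 2.62% of all probe sets were. In bulk RNA, fewer cells of a type and less RNA per cell cannot be told apart.

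XBP1, the factor that expands the endoplasmic reticulum for secretion, had 1 probe set. It read 11.84, 11.83 and 11.84 in the controls and 11.61, 11.57 and 11.60 with epirubicin. The groups did not overlap, and the difference of -0.24 (SE 0.03, 95% interval -0.31 to -0.17, limma adjusted p 0.00145) was 1.18-fold, under the fold of the call.

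PRDM1, the repressor that closes the B cell programme, read 11.26, 11.24 and 11.27 in the controls and 11.13, 11.15 and 11.12 with epirubicin. Its difference was -0.12 (SE 0.03, 95% interval -0.19 to -0.05, limma adjusted p 0.0208), also under the fold of the call. All 5 PRDM1 probe sets lay lower without overlap, by -0.25 to -0.12, where 41.2% of all probe sets were without overlap. Each of the 5 passed the adjusted p over all probe sets, as 25.1% of all probe sets did, with none past the fold. The pass of the brightest probe set was lost with quantile normalization, at -0.07 with a limma adjusted p of 0.107, and in 4 of the 6 fits that left out 1 array (limma adjusted p 0.0412 to 0.071, the passes being without epirubicin replicate 2 or shCtrl replicate 2).

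POU2AF1 (OCA-B), the coactivator of the octamer-binding factors, differed the other way. It read 11.75, 11.77 and 11.77 in the controls and 12.03, 12.00 and 12.00 with epirubicin. Its single probe set differed by 0.25 (SE 0.03, 95% interval 0.18 to 0.32, limma adjusted p 0.00134), or 1.19-fold. Among the 4 plasma cell factors, then, IRF4 fell, XBP1 and PRDM1 lay lower under the fold, and POU2AF1 lay higher under it.

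MAF, the basic leucine zipper oncogene, read 12.30, 12.35 and 12.33 in the controls and 12.51, 12.47 and 12.51 with epirubicin. The groups did not overlap, and the difference was 0.17 (SE 0.03, 95% interval 0.09 to 0.25, limma adjusted p 0.00843). The other 3 MAF probe sets differed by 0.09, 0.03 and 0.17, the last from a probe set at 2.51 whose groups overlapped. Only the brightest of the 4 passed the adjusted p over all probe sets, and none passed the fold.

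IKZF1 (Ikaros), a zinc finger factor that sustains IRF4 and MYC in myeloma, read 9.18, 9.15 and 9.18 in the controls and 9.01, 9.11 and 9.06 with epirubicin. The groups did not overlap, but the difference of -0.11 (SE 0.04, 95% interval -0.20 to -0.02) had a limma adjusted p of 0.0747. All 3 IKZF1 probe sets lay lower without overlap, by -0.16 to -0.11, where 41.2% of all probe sets were without overlap. Of the 3, 1 passed the adjusted p over all probe sets at 0.0469 with limma, as 25.1% of all probe sets did.

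IKZF3 (Aiolos), its close relative, read 7.57, 7.40 and 7.47 in the controls and 7.57, 7.84 and 7.66 with epirubicin. The lowest treated array lay within the controls. The difference was 0.21 (SE 0.08, 95% interval 0.02 to 0.40) with a limma adjusted p of 0.0944, and the other probe set differed by 0.11 without overlap. Without epirubicin replicate 2 the difference of the brighter probe set was 0.13.

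PAX5, the factor that commits and maintains B cells, read 9.77, 9.79 and 9.75 on its brightest probe set in the controls and 9.97, 9.87 and 9.81 with epirubicin. The difference of 0.12 (SE 0.05, limma adjusted p 0.117) did not pass, and it was 0.07 without epirubicin replicate 1 and 0.04 with the mean of all its probe sets. The other 9 PAX5 probe sets had overall means of 3.09 to 5.67, differences of -0.12 to 0.18 and overlapping groups. Of the 9, 8 lay below the median of all values.

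BCL6, the germinal centre repressor that holds PRDM1 down, rose from a low level. Its brightest probe set read 4.29, 4.26 and 4.02 in the controls and 4.63, 4.93 and 4.66 with epirubicin, with no overlap. Means were 4.19 ± 0.15 and 4.74 ± 0.17 (SD, n = 3 per group). The difference was 0.55 (SE 0.10, 95% interval 0.30 to 0.80, limma adjusted p 0.00865), or 1.47-fold. All 5 BCL6 probe sets lay below the median of all values. The other 4 differed by 0.05 to 0.30, 2 of them with overlap, and none was called. The mean of the 5 probe sets differed by 0.23 (limma adjusted p 0.00495), under the fold of the call. With each gene's own spread in place of the pooled one, the limma adjusted p was 0.0504, within a range of 0.000227 to 0.0504 over the alternatives.

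BACH2, a repressor of PRDM1 in B cells, also rose. Its brighter probe set read 6.32, 6.48 and 6.38 in the controls and 6.83, 6.90 and 6.82 with epirubicin, and every treated array lay above every control. Means were 6.39 ± 0.08 and 6.85 ± 0.04 (SD, n = 3 per group), a difference of 0.46 (SE 0.05, 95% interval 0.34 to 0.58, limma adjusted p 0.000912) or 1.37-fold. The other probe set read 3.24, 3.30 and 3.05 in the controls and 3.39, 3.48 and 3.32 with epirubicin, and its difference of 0.20 was not called (limma adjusted p 0.0996). The mean of both differed by 0.33 (limma adjusted p 0.00383), under the fold. For BCL6 1 of 5 probe sets and for BACH2 1 of 2 were called higher, where 3.65% of all probe sets were. Over the 35 probe sets of the 10 factors 2 were lower, 2 higher and 22 without overlap, where 41.2% of all probe sets were without overlap. Of the 35, 15 lay below the median of all values, of which 1 was called. Among the 20 with a group mean above it 18 were without overlap, against 15165 of 24251 such probe sets in all.

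**Figure D2:**
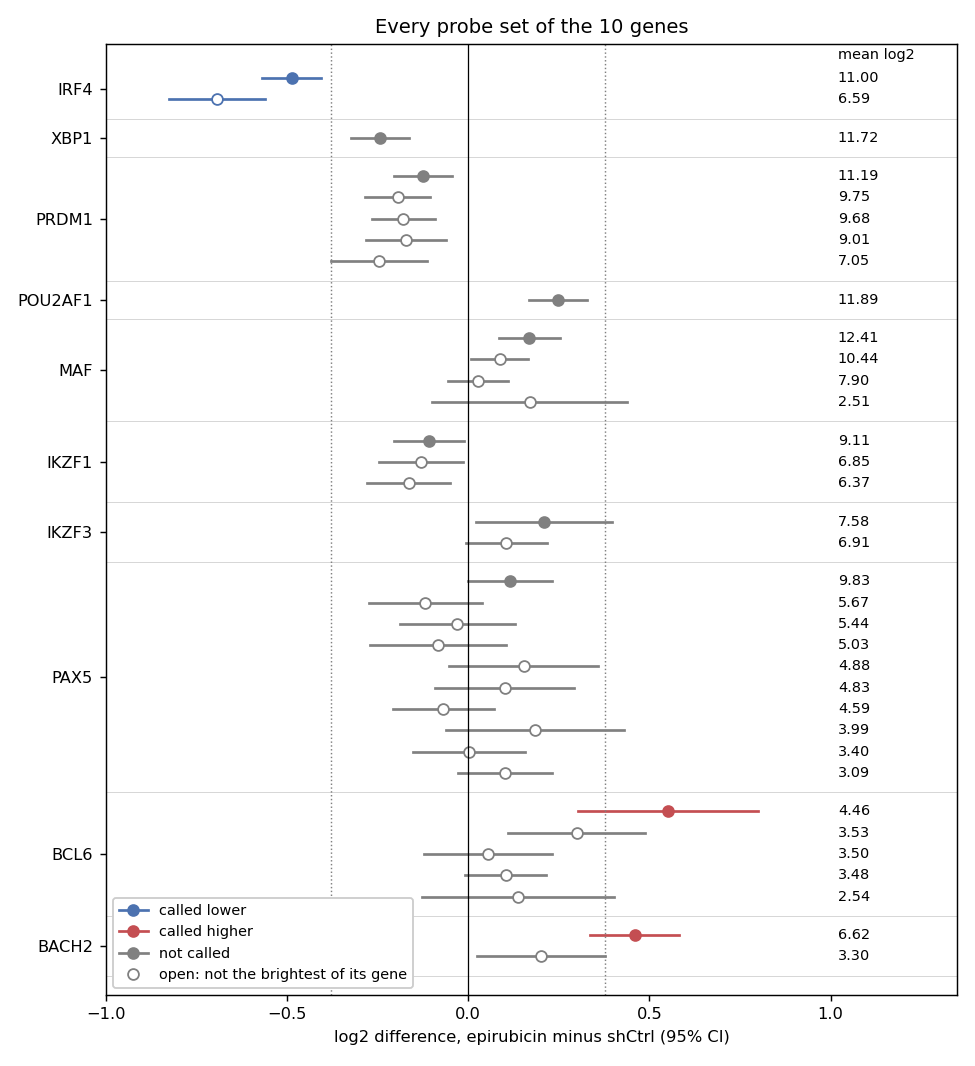
Log2 difference, epirubicin minus shCtrl, with its 95% interval for each of the 35 probe sets, ordered by gene with the overall mean log2 value at the right. Filled points are the brightest probe set of a gene, open points the others, and dotted lines the 1.3-fold threshold. Both IRF4 probe sets lie past it below 0, and 1 probe set each of BCL6 and BACH2 lies past it above 0.

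The genes that these factors are known to control were counted by lists. Of 10 measured partners and targets of IRF4, 3 were called lower, 1 higher and 6 neither, with a median difference of -0.11. Over all genes 2.14% were called lower and 4.36% higher, with a median of 0.02. KLF2, a quiescence factor of lymphocytes, fell by 0.75 on the log2 scale (limma adjusted p 2.97e-05). MYC, which IRF4 sustains in myeloma and which was measured by 1 probe set, read 11.58, 11.57 and 11.61 in the controls and 11.07, 11.03 and 11.10 with epirubicin. It fell by 0.52 (limma adjusted p 0.000123), with no overlap. The cell cycle kinase CDK6 fell by 0.39, with 1 of its 4 probe sets called, and lost its call under quantile normalization (-0.37), with the mean of its probe sets (-0.35) and without shCtrl replicate 2 (-0.36). SQLE, the squalene epoxidase of sterol synthesis, rose by 0.44, with 2 of 4 probe sets called and the mean of the 4 at 0.35, under the fold. For SUB1, not called on its brightest probe set, 2 of 5 probe sets were called lower, where 2.62% of all probe sets were.

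Of 29 other B and plasma cell transcription factors measured, 4 were called lower, 2 higher and 23 neither, with a median of -0.04. The shares over all genes were 2.14% lower and 4.36% higher. KLF2 and MYC were 2 of those lower. MYB, a progenitor factor, fell by 0.46 with 1 of 2 probe sets called, and the mean of both lay at -0.22, under the fold. ETS1, which restrains plasma cell formation, fell by 0.44 with all 3 probe sets called. TCF4, an E protein, rose by 0.49 where 4 of 11 probe sets were called, and the mean of its probe sets lay at 0.34, under the fold. BATF, an AP-1 factor that partners IRF4, rose by 0.41 and lay at 0.35, under the fold, without epirubicin replicate 2. Probe sets other than the brightest were called higher for POU2F2 (2 of 7) and lower for TCF3 (1 of 4). Over all probe sets 3.65% were called higher and 2.62% lower.

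For XBP1, 27 of its known secretory targets were measured, and 1 was called lower, 0 higher and 26 neither, with a median of -0.04. Of all genes 2.14% were called lower and 4.36% higher. The one called was SDF2L1, an endoplasmic reticulum chaperone partner, which fell by 0.60 (limma adjusted p 0.000175). Of the 27, 20 differences lay below 0, where 44.3% of all genes did. At any fold 11 of those and 4 of the others passed the adjusted p, where 29.1% of all genes passed. A group mean above the median of all values was found for 26 of the 27, and 44.3% of all such genes passed. Probe sets other than the brightest were called higher for DNAJB9 (1 of 3) and lower for PDIA4 (1 of 3). With the array medians set equal, or without shCtrl replicate 1, 2 of the 27 were called lower, the other being SRPRB, a subunit of the signal recognition particle receptor (-0.40 and -0.39).

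Among 10 measured genes that PRDM1 represses, 3 were called higher, 1 lower and 6 neither, with a median of 0.13. For this list and the next, the shares over all genes were 4.36% higher and 2.14% lower. FOS, an AP-1 factor, rose by 0.73 with 2 of 4 probe sets called and the mean of the 4 at 0.46, and STAT6, which transmits IL-4 signals, by 0.54 with 1 of 4 called and the mean of the 4 at 0.30, under the fold. BCL6 was the other that rose and MYC the one that fell, and 9 of the 10 differences lay above 0, where 55.7% of all genes did. At any fold 4 of those 9 passed the adjusted p, as did MYC, where 29.1% of all genes passed. The groups of 3 of the 10 overlapped. BCL6 and PAX5 are themselves among the followed factors, and the median of the 8 others in the list was 0.10. Among 12 measured genes that BCL6 represses, 2 were called higher, 1 lower and 9 neither, with a median of 0.10. CDKN1A, the p21 inhibitor of the cell cycle, rose by 1.88 (limma adjusted p 1.15e-06) and CD80, a costimulatory ligand, by 0.79 with 4 of 5 probe sets called, whereas IRF4 was the one that fell.

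Among 12 measured genes that PAX5 activates, 1 was called higher, 0 lower and 11 neither, with a median of 0.04. For this list and the next, 4.36% of all genes were called higher and 2.14% lower. The gene called was BLNK, the adaptor of B cell receptor signalling, which read 8.79, 8.73 and 8.80 in the controls and 9.56, 9.65 and 9.56 with epirubicin. It rose by 0.82 (limma adjusted p 5.38e-05). Of 5 MAF targets in myeloma 1 was called higher, 0 lower and 4 neither, with a median of 0.08. All 5 differences lay above 0, as 55.7% of those of all genes did. At any fold 2 of the 5 passed the adjusted p, where 29.1% of all genes passed, and the groups of 2 overlapped. NUAK1, an AMPK-related kinase, rose by 0.51 with 2 of 3 probe sets called. Among 12 genes of the cereblon ligase and its drug-induced substrates none was called in either direction on its brightest probe set. At any fold 3 had a limma adjusted p under 0.05, all below 0, where 29.1% of all genes passed. Other probe sets were called lower for GSPT1 (1 of 5), DDB1 (1 of 4) and PATZ1 (1 of 2), where 2.62% of all probe sets were. The largest difference there was that of GSPT1, a translation termination factor, at -0.35 with a limma adjusted p of 0.00131.

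Of the 14 plasma cell markers 2 were called lower, 0 higher and 12 neither, with a median of -0.06. The shares over all genes were 2.14% lower and 4.36% higher. CD38, the ectoenzyme targeted by antibodies in myeloma, fell by 1.18 (limma adjusted p 2.57e-05), from 6.43, 6.46 and 6.38 to 5.16, 5.30 and 5.28. GPRC5D, an orphan receptor of plasma cells, fell by 0.38 and lay under the fold with quantile normalization (-0.35) and without shCtrl replicate 1 (-0.36). No marker of B cells, T and NK cells, myeloid cells or stroma and epithelium was called by limma with the fold when all arrays were used. With 1 array left out, CD2 was called higher without epirubicin replicate 2 (0.40) and without shCtrl replicate 3 (0.38), and EPCAM lower without epirubicin replicate 2 (-0.42). At any fold 1 marker each of the B cell, T and NK cell and myeloid lists had an adjusted p under 0.05. Of all genes 29.1% did. The largest differences in those lists were 0.28 for CR2, 0.35 for CD2, 0.26 for ELANE and -0.33 for EPCAM. The other CD2 probe set went the opposite way, from 3.19, 3.15 and 3.09 to 2.73, 2.70 and 2.83, and was called lower at -0.39 (limma adjusted p 0.00186 over all probe sets).

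**Figure D3:**
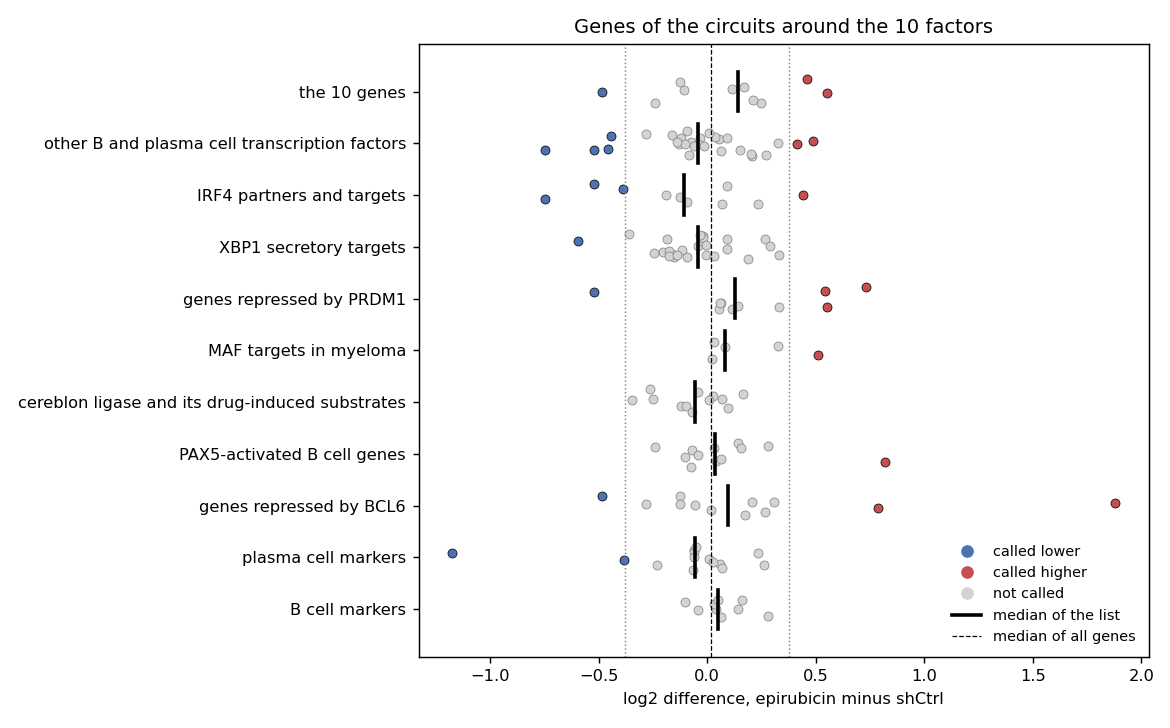
Log2 difference, epirubicin minus shCtrl, of each factor and of each measured gene in the lists around them, 1 row per list. Dotted lines mark the 1.3-fold threshold. Of the marker lists, those of plasma cells and B cells are drawn. The T and NK cell, myeloid, and stromal and epithelial markers are not drawn. Most points lie between the lines, with CDKN1A at 1.88 and CD38 at -1.18 as the farthest on either side.

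Genes whose profile over the 6 arrays was nearest to a called factor were ranked by the Euclidean distance of values centred on the control mean, among genes called in the same direction. Among 375 candidates, RRS1, a ribosome assembly factor, was nearest to IRF4 at a distance of 0.03 and a difference of -0.48. TMEM177, HSPE1, AMD1 and USP7 followed at 0.05 to 0.06, with differences of -0.51, -0.46, -0.51 and -0.50. Among 763 candidates P2RX7, an ATP-gated channel, was nearest to BACH2 at 0.04 with a difference of 0.47, followed by LRRN1, PLXNA2, FGD4 and TP53INP1 at 0.06 to 0.08. Those nearest to BCL6 were farther off, with PLK3, PATL2, PON1, JHY and DKK2 at 0.18 to 0.22 and differences of 0.62, 0.53, 0.47, 0.55 and 0.54.

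**Figure D4:**
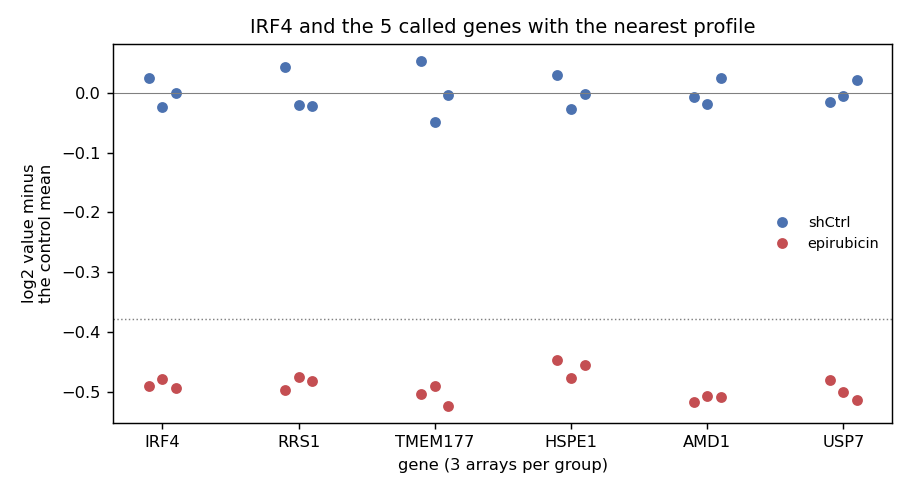
Log2 value minus the control mean on each of 6 arrays for IRF4 and the 5 called genes nearest to it. The dotted line marks the 1.3-fold threshold, and the arrays of a group stand from left to right by replicate number. All 6 genes lie near 0 in the controls and past the line with epirubicin.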

How the data were processed

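The series holds 6 PrimeView arrays of MM.1R cells, 3 per group, grouped by the labels' titles. The authors deposited 1 table of values for 47481 probe sets, which the values show to be on a log2 scale (1.41 to 13.73). The affy package is named in the submitters' processing notes; no source used here gives the summarisation or normalization, and the values were used as deposited. The probe annotation named 1 gene for 43976 probe sets, several for 1558 and none for 1947. The brightest probe set by mean over all arrays stood for each gene. Differences were fitted with limma 3.58.1 (R 4.3.3, lmFit and eBayes, 2 groups) over 17534 genes, and separately over all probe sets, with Benjamini-Hochberg adjustment. The fold of 1.3 and adjusted p of 0.05 follow the series' design text. The script was tested on simulated data.

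The members and lists were chosen with earlier results of these data known. Named genes were all members with each probe set, up to 4 called genes per direction in each list (otherwise its largest difference), and the 5 called genes nearest to each called member. List genes that were not measured are not analysed here. Same-numbered arrays did not deviate together (correlations of -0.033, 0.017 and 0.001), and the main fit was not paired. The labels give only the number, and such correlations cannot settle whether these arrays share a culture or a day. Promoter windows came from RefSeq (GRCh38.p14). Alternatives were quantile normalization, array medians set equal, the mean of a gene's probe sets, a filter on level, no fold threshold, other spread estimates, a replicate block and leaving out each array. The number of arrays limits the precision.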

Additional observations from a re-analysis of the deposited data

How the results depend on the processing

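IRF4 kept its call and direction in all 13 alternatives (-0.59 to -0.46, limma adjusted p at most 0.00278). With 1 array left out, IRF4 ranged from -0.50 to -0.47, BCL6 from 0.46 to 0.60 and BACH2 from 0.42 to 0.50, all called. The mean of all probe sets ended both other calls (BCL6 0.23, BACH2 0.33), leaving 0 factors higher. With the ordinary per-gene spread 1 was higher, BCL6 standing at 0.55 with an ordinary t-test adjusted p of 0.0504 (0.000227 to 0.0504 over its alternatives). With only genes above the median level 1 was higher, since BCL6 was not tested. Without a fold threshold 3 factors were lower and 4 higher. Counted by probe sets in place of genes, 2 probe sets were lower, both of IRF4. In that count 2 were higher, 1 each of BCL6 and BACH2. No factor reversed. Whether same-numbered arrays share more than a number is not stated. With the replicate block 1 factor was lower and 2 higher, IRF4 stood at -0.49 (limma adjusted p 0.00278), 372 genes were lower and 755 higher, and the adjusted p of PRDM1 was 0.0816. The limma adjusted p of MAF was 0.0575 with the mean of its probe sets. Over all genes 376 were lower and 765 higher, 485 and 646 with the array medians set equal, and 2362 and 2744 without a fold threshold. The cause was not tested.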
